A study of Mus musculus with 8 samples.

Results

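β-Catenin, its Tcf/Lef partners and the complex that destroys it were examined in Paneth cells of the mouse small intestine as a set of 10 genes: Ctnnb1, the 4 Tcf/Lef genes Tcf7, Tcf7l1, Tcf7l2 and Lef1, the coactivators Bcl9 and Pygo2, and the destruction complex genes Apc, Axin1 and Gsk3b. They were picked by symbol for their roles, and all 10 were found among the 53801 genes of the count table. Paneth cells with heterozygous and with homozygous ablation of Mll1 (gene Kmt2a, an H3K4 methyltransferase) were compared by RNA sequencing, with 4 libraries, from 4 mice by the study's account, per genotype. By the series' design text the control mice were β-cateninGOF; Mll1+/- and the knockout mice β-cateninGOF; Mll1-/-, while the sample labels name the Mll1 genotype only. In both groups tamoxifen (1 mg on 3 consecutive days) induced a Cre recombinase driven by the Lgr5 promoter, and crypts were taken 10 days later. By the study's methods, mice were 4 to 6 wk old at induction, and 300 viable EpCAM+ Cd24+ cells per library were sorted into lysis buffer after staining that included an antibody to CD45, a marker of leukocytes. How the CD45 stain was gated is not stated. The titles of control 4 and knockout 4 give 1 shared animal number with different genotypes, which the sources used here do not resolve, so values without both are given for the 10 genes. By the design text and the study's results, both groups carried a stabilized β-catenin allele and at least 1 ablated Mll1 allele. No library without these was analysed here. Cre acted in Lgr5+ stem cells, from which Paneth cells descend, and the sort itself did not select for recombination.

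In Wnt signalling, β-catenin is held at a low level by a complex in which the scaffold proteins Apc and Axin1 present it to kinases, Gsk3b among them, and its phosphorylation leads to degradation. When the complex is inhibited, β-catenin enters the nucleus, binds Tcf/Lef proteins at target genes and recruits Bcl9 and Pygo2. In the crypt this pathway maintains stem cells and drives maturation of Paneth cells, and Tcf7l2 is the main Tcf factor of the intestinal epithelium.

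The β-cateninGOF allele arises by deletion of exon 3 of Ctnnb1, shown here because by the design text every mouse carries this allele and because the exon holds the phosphorylation sites read by the destruction complex. Exon 3 (GRCm38, chr9:120950522-120950749, plus strand, exon 3 of 15 in transcript ENSMUST00000007130.14) is 228 bases long, a multiple of 3, so its removal keeps the reading frame. It encodes residues 6 to 80 of the 781-residue protein as whole codons. The capitals mark the codons of serine 33, serine 37, threonine 41 and serine 45, counted from the first methionine.
Ctnnb1 exon 3: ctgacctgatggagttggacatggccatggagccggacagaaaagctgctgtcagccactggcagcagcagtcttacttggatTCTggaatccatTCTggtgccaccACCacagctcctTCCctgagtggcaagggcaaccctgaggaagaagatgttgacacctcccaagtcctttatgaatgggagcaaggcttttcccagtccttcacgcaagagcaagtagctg
The exon makes up 4.39% of the bases over which Ctnnb1 reads were counted. Counts were summed over the gene, so reads from the deleted and the intact allele could not be separated, and the share of cells with the deletion was not measured.

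Ctnnb1 (ENSMUSG00000006932, chromosome 9 from 120929216 to 120960507, plus strand) stood at a higher mean level in the knockouts, with overlap between the groups. Levels are given as normalized CPM, raw counts scaled to library size (CPM) after correction by trimmed mean of M values (TMM). The controls 1 to 4 had 11.6, 15.5, 14.9 and 24.1 normalized CPM, and the knockouts 1 to 4 had 27.4, 26.6, 15.2 and 33.0. Knockouts 1, 2 and 4 lay above every control, whereas knockout 3 lay among the controls. The means were 16.6 ± 5.34 and 25.6 ± 7.48 (SD, n = 4 each). The log2 fold change of 0.63 (standard error 0.28, 95% interval 0.03 to 1.23) did not pass the test over all genes (adjusted p = 0.68, edgeR quasi-likelihood test), and an exact two-sided permutation test over the libraries gave p = 0.0857. With a library left out, the unadjusted p in edgeR was under 0.05 only without control 4 or knockout 3, at log2 fold changes of 0.87 and 0.81. Without each of the other libraries the log2 fold change was 0.48 to 0.61. Of the exon bases of Ctnnb1, 14.6% also belong to Ulk4 on the opposite strand, and no strand setting of the counting was given. Ulk4 had 8 to 14 counts in the controls and 2 to 6 in the knockouts, against 129 to 543 counts for Ctnnb1.

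The Tcf/Lef genes fell into a pair with higher mean levels in the knockouts, Lef1 and Tcf7, and a pair close to equal, Tcf7l1 and Tcf7l2. None passed the test over all genes. Lef1 encodes a Tcf/Lef factor that is itself a Wnt target in several tissues and is little expressed in normal adult intestinal epithelium. Lef1 (ENSMUSG00000027985, chromosome 3 from 131110471 to 131224356, plus strand) had 2.64, 2.47, 6.39 and 5.07 normalized CPM in controls 1 to 4. It had 10.5, 8.52, 9.43 and 6.81 in knockouts 1 to 4. The groups did not overlap, but the lowest knockout, 6.81, stood close to the highest control, 6.39. The means were 4.14 ± 1.91 and 8.83 ± 1.58 (SD, n = 4 each). On the log2 scale they differed by 1.10 (standard error 0.34, 95% interval 0.35 to 1.84), with an adjusted p = 0.45 in edgeR. The exact permutation test gave p = 0.0286, the smallest value that 4 against 4 libraries allow. Controls 1 and 2 had 42 and 31 Lef1 counts and controls 3 and 4 had 71 and 64. A transcript on the opposite strand, Gm43352, shares 13.7% of the Lef1 exon bases and had at most 2 counts in a library.

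Tcf7 encodes the factor also known as TCF1, best known from T cell development and also a Wnt target in the intestine. Tcf7 (ENSMUSG00000000782, chromosome 11 from 52252371 to 52283014, minus strand) had 6.04, 7.0, 3.24 and 6.02 normalized CPM in controls 1 to 4. It had 19.7, 15.3, 3.89 and 9.80 in knockouts 1 to 4. Knockouts 1, 2 and 4 were above every control, and knockout 3 was below 3 of the controls. The means were 5.57 ± 1.62 and 12.2 ± 6.86 (SD, n = 4 each). The log2 fold change was 1.13 (standard error 0.43, 95% interval 0.20 to 2.07), with an adjusted p = 0.589 in edgeR and an exact permutation p = 0.171. Without knockout 3 the log2 fold change of Tcf7 was 1.41 and passed the test (adjusted p = 0.0422 in edgeR), and it also passed with all 8 libraries when genes with low counts were kept in (adjusted p = 0.0202). In the other direction, Tcf7 no longer had an unadjusted p under 0.05 without knockout 1, knockout 2 or control 3, at log2 fold changes of 0.81, 1.01 and 0.95. Knockout 3 stood apart from the other libraries by its scaling factor of 0.632 against 0.821 to 1.34 and its 19662 genes with a count against 22623 to 26074. Its part in the values of Ctnnb1 and Tcf7 was not tested beyond leaving it out.

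Tcf7l2, whose protein is the chief intestinal partner of β-catenin, differed little between genotypes. It had 42.9, 49.7, 47.3 and 61.5 normalized CPM in controls 1 to 4 and 54.5, 50.3, 54.8 and 54.9 in knockouts 1 to 4. The knockouts all lay within the range of the controls. The log2 fold change was 0.09 (standard error 0.16), and its 95% interval from -0.26 to 0.44 leaves room for a change of moderate size in either direction. Tcf7l1, a family member that acts mainly as a repressor, had the lowest level of the 10 per gene length over all 8 libraries, though in the controls alone Lef1 was lower. It had 1.89, 2.87, 2.43 and 1.90 normalized CPM in controls 1 to 4 and 1.79, 2.88, 2.36 and 2.2 in knockouts 1 to 4, and the groups overlapped throughout. Its log2 fold change of 0.02 had an interval from -0.76 to 0.80, at 20 to 50 counts per library.

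**Figure D1:**
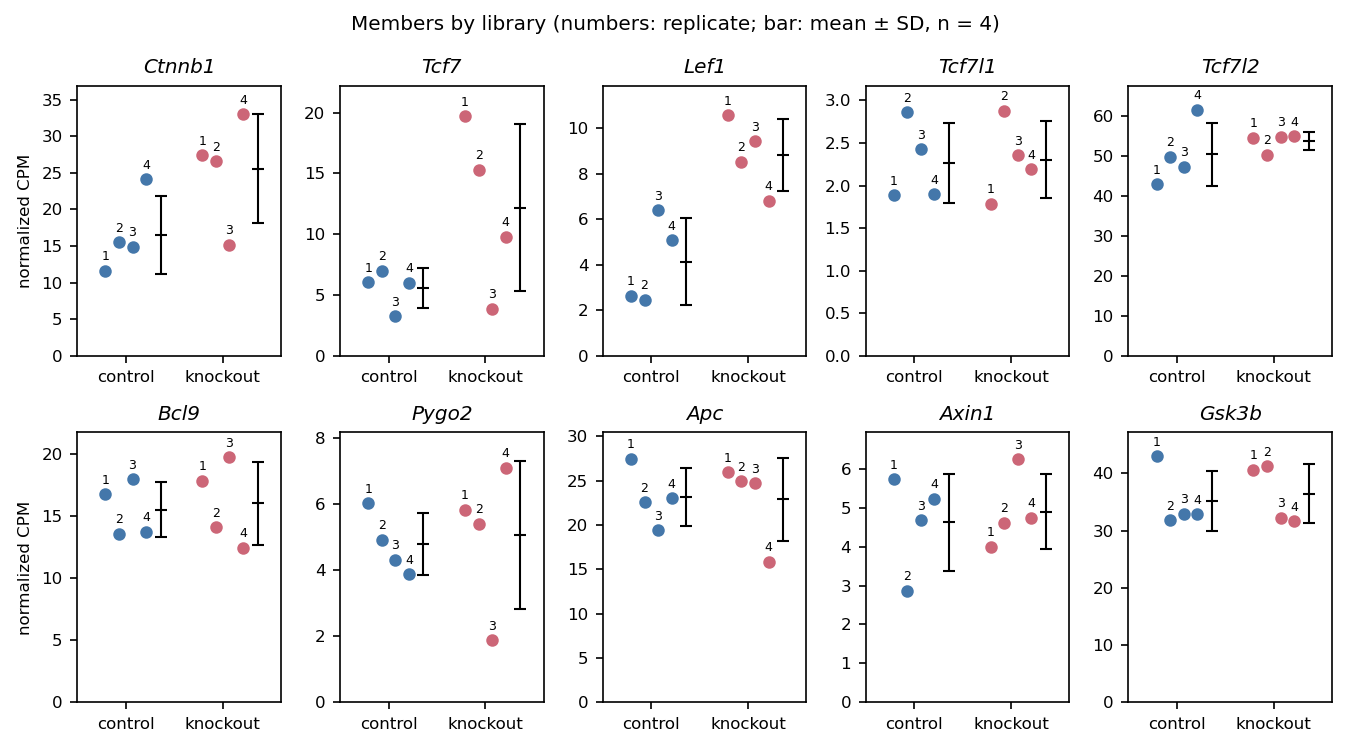
Normalized CPM (y axis, from 0, own scale per panel) of the 10 genes in 4 control and 4 knockout libraries. Points are libraries with their replicate number, and black bars are means ± SD (n = 4). The groups of Lef1 do not overlap, and in Ctnnb1 and Tcf7 only knockout 3 lies within the control range.

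The coactivators showed no difference beyond the spread between libraries. Bcl9, the adaptor that links β-catenin to Pygopus proteins, had 16.8, 13.6, 18.0 and 13.8 normalized CPM in the controls and 17.9, 14.1, 19.8 and 12.5 in the knockouts (log2 fold change 0.04, 95% interval -0.41 to 0.50). Pygo2, a PHD finger protein that binds methylated H3K4, had 6.04, 4.93, 4.32 and 3.88 in the controls and 5.84, 5.41, 1.89 and 7.12 in the knockouts. Knockout 3 had the lowest Pygo2 level of all 8 libraries and knockout 4 the highest, and the interval of the log2 fold change was correspondingly wide (0.09, 95% interval -0.72 to 0.91).

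The destruction complex genes likewise showed no difference beyond that spread. Apc, the scaffold whose loss commonly starts intestinal tumours, had 27.5, 22.6, 19.4 and 23.0 normalized CPM in the controls and 26.0, 24.9, 24.7 and 15.9 in the knockouts (log2 fold change -0.02, 95% interval -0.46 to 0.42). Axin1, the limiting scaffold of the complex, had 5.72, 2.87, 4.68 and 5.23 in the controls and 3.99, 4.61, 6.25 and 4.75 in the knockouts (0.07, 95% interval -0.59 to 0.74). Gsk3b, the kinase, had 43.0, 31.8, 33.0 and 32.9 in the controls and 40.6, 41.3, 32.3 and 31.7 in the knockouts (0.05, 95% interval -0.33 to 0.43). In each of the 3 genes the ranges of the groups overlapped. The adjusted p of the 7 genes other than Ctnnb1, Tcf7 and Lef1 lay between 0.979 and 0.997 in edgeR, which does not show that their levels were equal: a log2 change of 0.3 lies inside each of the 7 intervals.

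All 10 genes passed the filter on low counts. None of the 10 passed an adjusted p of 0.05 together with a change of 0.5 or more on the log2 scale, a rule met by 25 of the 13439 tested genes (0.186%). None passed an adjusted p of 0.1 alone, the limit stated in the study's methods, which 0.283% of the tested genes met. With limma-voom and quality weights for the libraries, Tcf7 did pass that limit, at a log2 fold change of 1.47 (adjusted p = 0.0896). At an unadjusted p under 0.05 in edgeR there were 3 of 10, Ctnnb1, Tcf7 and Lef1, against 6.88% of the tested genes. All 3 were higher in the knockouts, as were 4.35% of the tested genes at that limit. At the 2 cutoffs together DESeq2 and limma-voom with quality weights also called 0 of the 10, and both gave 3 of 10 at an unadjusted p under 0.05. Groups without overlap were found for 1 of 10, Lef1, against 4.52% of the tested genes. The median log2 fold change of the 10 was 0.08, beside 0.01 over all tested genes.

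**Figure D2:**
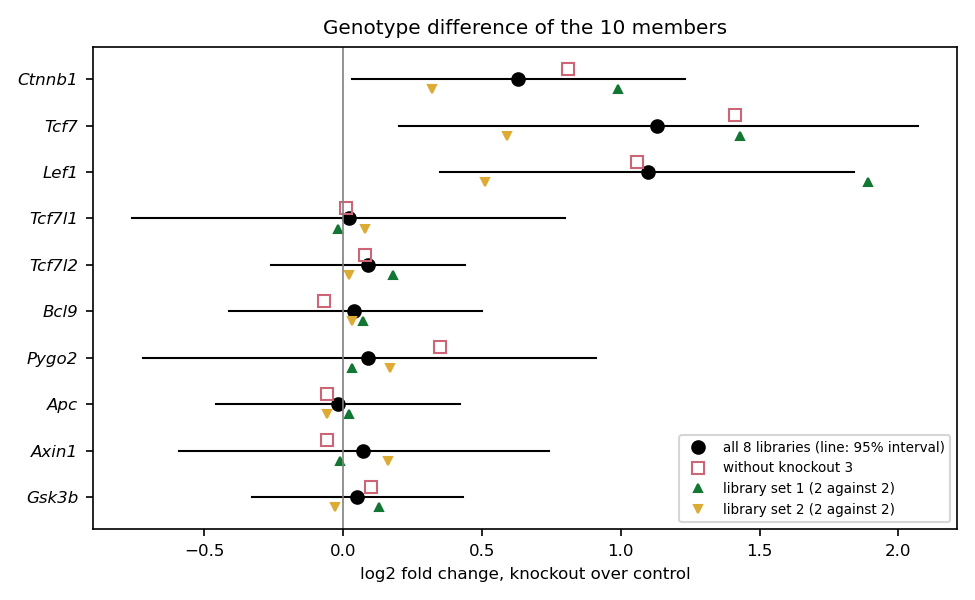
Log2 fold change of knockout over control (x axis) for the 10 genes. Black points and lines are the estimates from 8 libraries with 95% intervals, open squares leave out knockout 3, and triangles are the estimates within each library set. The intervals of Ctnnb1, Tcf7 and Lef1 lie above 0 before adjustment, and the other 7 include 0.

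The labels number the libraries in 2 runs, called library sets here: controls 1 and 2 with knockouts 1 and 2 in set 1, and the other 4 libraries in set 2. What the runs stand for is not stated. Within set 1 the log2 fold changes were 0.99 for Ctnnb1, 1.43 for Tcf7 and 1.89 for Lef1, and in set 2 they were 0.32, 0.59 and 0.51. All 3 genes were thus higher in the knockouts in both sets, with the larger difference in set 1. With set 1 alone Tcf7 (adjusted p = 0.0372) and Lef1 (adjusted p = 0.0296) passed the test in edgeR, and with set 2 alone neither did. The difference between the sets itself, an interaction term, was -1.4 on the log2 scale for Lef1 (set 2 minus set 1), with an adjusted p = 0.867 in edgeR, and had an adjusted p = 0.895 for both Ctnnb1 and Tcf7. Unadjusted, it was under 0.05 for Lef1 only. With 2 libraries of each genotype per set, such a term is poorly measured. Without control 4 and knockout 4 the log2 fold changes were 0.72 for Ctnnb1, 1.26 for Tcf7 and 1.32 for Lef1, with 0.19 for Tcf7l2, 0.09 for Bcl9, 0.15 for Axin1, 0.08 for Gsk3b, 0.12 for Apc, -0.03 for Tcf7l1 and -0.20 for Pygo2. Again 0 of the 10 genes were called and 3 had an unadjusted p under 0.05 in edgeR.

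Because the pair of Tcf/Lef genes with higher means and the pair without were measured in the same libraries, their proportions could be compared free of scaling between libraries. Levels were divided by gene length for this purpose. Because Tcf7l2 itself differed little, a lower share restates the higher Tcf7 and Lef1 values and adds no independent evidence. Tcf7l2 made up 61.5%, 60.7%, 67.7% and 67.7% of the summed per-length level of the 4 genes in controls 1 to 4. In knockouts 1 to 4 it made up 40.5%, 43.3%, 66.5% and 55.4%. Knockouts 1, 2 and 4 had a lower Tcf7l2 share than any control, and knockout 3 lay within the controls. The mean difference was -13.0 percentage points (exact two-sided permutation p = 0.0857). As a share of raw counts, without division by length, the difference was -10.53 points with p = 0.0286 in the exact permutation test, so the side of the threshold depended on the length division. Without knockout 3 the difference per length was -18.03 points (exact permutation p = 0.0286). That p is the smallest those libraries allow, and it follows from leaving out the only knockout within the control range. The difference was -19.22 points within set 1 and -6.77 points within set 2, and it was -13.2 points without control 4 and knockout 4.

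In 6 of 8 libraries Tcf7 held most of the remainder of the Tcf/Lef level, and in control 3 and knockout 3 Lef1 and Tcf7l1 together held more. Its share was 28.8%, 28.5%, 15.5% and 22.1% in controls 1 to 4 and 48.8%, 43.9%, 15.7% and 32.9% in knockouts 1 to 4. In knockouts 1 and 2 the per-length level of Tcf7 was 1.20 and 1.01 times that of Tcf7l2, and in the other 6 libraries it was 0.228 to 0.594 times. In raw counts, knockouts 1 and 2 had 331 and 266 for Tcf7 against 915 and 873 for Tcf7l2. The near parity thus rests on the length division. Control libraries had 5.35% ± 2.72 and knockout libraries 8.33% ± 2.07 of the summed level in Lef1 (SD, n = 4 each). For Tcf7l1 the shares were 6.55% ± 1.51 and 4.94% ± 1.45.

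**Figure D3:**
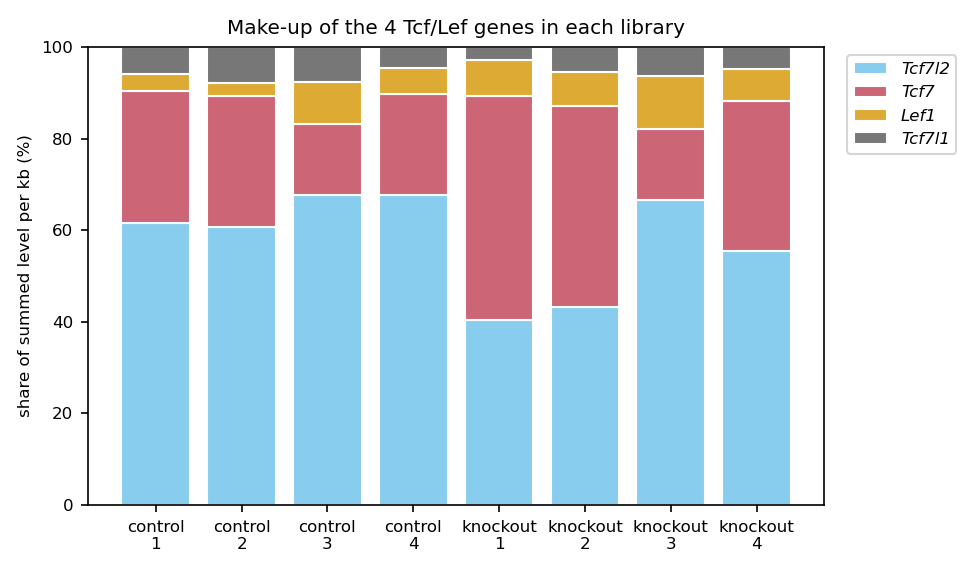
Share of each Tcf/Lef gene in the summed level per kb of the 4 genes (y axis, %), 1 bar per library. The Tcf7l2 share is 60.7% to 67.7% in the controls and 40.5% to 66.5% in the knockouts, with the lowest shares in knockouts 1 and 2.

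Over all 8 libraries the per-length levels of the 10 genes spanned about an order of magnitude. On the scale of normalized CPM per kb of exon, Tcf7l2 had the highest mean level at 5.95 ± 0.65 (SD, n = 8), followed by Ctnnb1 at 4.06 ± 1.48, Gsk3b at 3.64 ± 0.497 and Tcf7 at 3.38 ± 2.21. Bcl9 at 1.87 ± 0.313, Apc at 1.46 ± 0.239, Pygo2 at 1.36 ± 0.439 and Axin1 at 1.24 ± 0.271 were of intermediate level. Lef1 at 0.738 ± 0.34 and Tcf7l1 at 0.583 ± 0.109 were the lowest. Bcl9 exceeded Apc in 8 of 8 libraries, and for the other 8 pairs of neighbours the order held in 4 to 7 of 8. This pooled order was not that of either genotype. In the controls Tcf7l2 (mean 5.76) was followed by Gsk3b (3.58), Ctnnb1 (3.19) and Tcf7 (2.12), and in the knockouts Tcf7l2 (6.14) was followed by Ctnnb1 (4.92), Tcf7 (4.64) and Gsk3b (3.71). Gsk3b exceeded Tcf7 in 4 of 4 controls and in 1 of 4 knockouts, and Ctnnb1 exceeded Gsk3b in 1 of 4 controls and in 3 of 4 knockouts. Lef1 exceeded Tcf7l1 in 2 of 4 controls and in 4 of 4 knockouts.

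Lef1 and Tcf7 each have more than 1 annotated start. Lef1 is known to be transcribed from a full-length start and from an internal start whose product lacks the β-catenin-binding domain, and gene counts add up both. The RefSeq windows (GRCm38.p6, 250 bases before to 50 after a start) of the first and the most internal Lef1 start and of the first Tcf7 start are shown because the 2 genes had the largest differences of the set. Capitals mark a match to a Tcf/Lef motif, searched on both strands as CTTTGAA, the variant CTTTGAT, the variant CTTTGTA and the variant CTTTGTT.
Lef1 first start, chr3:131110047-131110346, plus strand: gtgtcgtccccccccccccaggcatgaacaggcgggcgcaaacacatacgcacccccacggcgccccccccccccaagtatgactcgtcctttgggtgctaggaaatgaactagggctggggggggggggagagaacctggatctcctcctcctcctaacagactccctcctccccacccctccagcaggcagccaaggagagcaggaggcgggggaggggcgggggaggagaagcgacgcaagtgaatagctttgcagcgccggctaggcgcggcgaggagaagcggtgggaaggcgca
Lef1 internal start, chr3:131156044-131156343, plus strand: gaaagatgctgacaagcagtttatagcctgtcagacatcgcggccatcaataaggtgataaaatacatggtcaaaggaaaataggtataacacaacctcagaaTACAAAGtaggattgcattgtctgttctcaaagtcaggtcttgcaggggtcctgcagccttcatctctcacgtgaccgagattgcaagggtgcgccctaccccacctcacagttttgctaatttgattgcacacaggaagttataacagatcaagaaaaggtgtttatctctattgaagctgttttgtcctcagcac
Tcf7 first start, chr11:52282965-52283264, minus strand: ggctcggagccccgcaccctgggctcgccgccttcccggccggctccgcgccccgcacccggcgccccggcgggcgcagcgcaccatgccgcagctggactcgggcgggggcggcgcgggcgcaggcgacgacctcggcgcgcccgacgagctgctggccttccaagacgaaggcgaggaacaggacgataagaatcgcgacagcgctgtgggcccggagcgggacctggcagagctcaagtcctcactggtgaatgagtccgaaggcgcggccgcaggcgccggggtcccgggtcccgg
The internal Lef1 window held CTTTGTA on the minus strand, at position -147 from the start, and neither of the other printed windows held a match. Windows were found for 8 of the 10 genes, without Apc and Axin1, and 2 of their 16 windows held a match, the other being an internal start of Tcf7l2 (CTTTGTT on the plus strand, at position -14). Over all 32851 windows, 16.9% held a match. Reads were not resolved by start, so the data do not say which start gave the Lef1 counts.

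The other genes of the pathway, were taken from 5 lists chosen with earlier results of these data known. Of 76 listed genes 69 were tested and none passed both cutoffs, beside 0.186% of all tested genes. At an unadjusted p under 0.05 in edgeR 2 were higher and 1 lower, a share no larger than the 6.88% of all tested genes. Their median log2 fold change was 0.05, beside 0.01 over all tested genes. Groups without overlap were found for 4 of the 69, Bcl9l, Ruvbl2, Chd8 and Cdh17, a share close to the 4.52% of all tested genes. Among 24 tested destruction complex and degradation genes, Axin2, the inducible homologue of Axin1 and a Wnt target, had 31.2, 16.7, 14.9 and 18.5 normalized CPM in the controls and 39.0, 53.2, 20.2 and 39.2 in the knockouts. Knockouts 1, 2 and 4 were above every control, with knockout 3 again the lowest of its group (log2 fold change 0.90, standard error 0.31, adjusted p = 0.505 in edgeR). Csnk1e, a casein kinase, followed in that list with 0.45. Among 9 Dishevelled, tankyrase and other regulators, Frat1, an inhibitor of Gsk3, had -0.53 and Rnf146, a ubiquitin ligase for Axin, had -0.60, and 70.2% of the Rnf146 exon bases lie in Echdc1 on the other strand.

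Among 11 tested coactivators, Bcl9l, the paralogue of Bcl9, had 3.46, 4.14, 2.34 and 4.12 normalized CPM in the controls and 5.96, 5.18, 7.89 and 7.73 in the knockouts. The groups did not overlap, and knockout 3 was here the highest library. The log2 fold change of Bcl9l was 0.92 (standard error 0.29, adjusted p = 0.468 in edgeR), beside 0.04 for Bcl9. Ruvbl2, an ATPase of chromatin-remodelling complexes, likewise had groups without overlap at a log2 fold change of 0.48 (adjusted p = 0.742 in edgeR). Among 16 tested corepressors and inhibitors, Chd8, a chromatin remodeller that binds β-catenin and restrains its targets, had 22.6, 26.1, 21.2 and 19.8 in the controls and 15.3, 17.7, 14.6 and 14.9 in the knockouts. Every knockout lay below every control (log2 fold change -0.52, standard error 0.17, adjusted p = 0.479 in edgeR). Cby1, a β-catenin antagonist, had a log2 fold change of 0.59. Of 9 genes in the adhesion list, Cdh17 had -0.38, with every knockout below every control, and Dsp had -0.30.

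Readout of the pathway was compared in 18 Wnt target genes of the crypt. The median log2 fold change was 0.47, and 2 genes rose past both cutoffs, which 0.186% of all tested genes passed. Nkd1, a feedback inhibitor acting on Dishevelled, rose by 2.60 (standard error 0.21, adjusted p = 0.000189 in edgeR), and Notum, a secreted deacylase of Wnt proteins, rose by 4.89 (standard error 0.40, adjusted p = 0.000189). Notum had 5, 4, 10 and 10 counts in controls 1 to 4 and 341, 386, 96 and 233 in knockouts 1 to 4, so it entered the test through its knockout counts and the size of its fold rests on few control counts. At an unadjusted p under 0.05, 7 of the 18 were higher, Nkd1 and Notum included, beside 4.35% of all tested genes, and 1, Ascl2 at -0.82, was lower. Lgr5, the stem cell receptor gene, had 0.04. The target list thus held both of the calls found in the pathway, and no gene of the β-catenin, Tcf/Lef and destruction complex set was among the called genes.

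**Figure D4:**
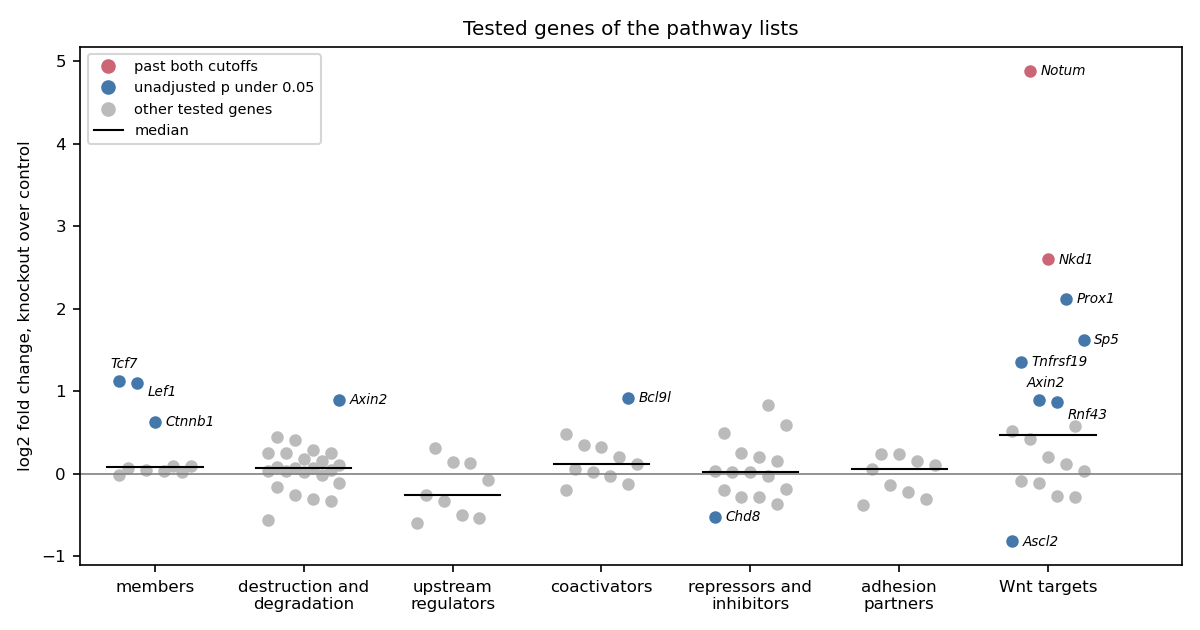
Log2 fold change of knockout over control (y axis) for each tested gene of the 10-gene set, 5 other pathway lists and the Wnt target list. Red points pass both cutoffs, blue points have an unadjusted p under 0.05, grey points are the other tested genes, and black lines are medians; Axin2 is in 2 lists. Red points occur in the target list only, for Nkd1 and Notum.

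The targeted gene, Kmt2a, showed no difference beyond the spread between libraries in counts summed over all its exons (32.3 ± 10.9 and 31.0 ± 5.55 normalized CPM, log2 fold change -0.06). Such counts do not resolve a deleted exon. By the study's account, antibody staining of knockout crypts showed loss of the Mll1 protein at the time of sorting, in Paneth cells too. Library totals were 13557350 to 14380240 counts in the controls and 13037832 to 13554171 in the knockouts. All 14 Paneth cell markers were tested and none passed the cutoffs, with 256862 to 713130 counts of Lyz1 (lysozyme) per library. Their sum was 360300, 555700, 684900 and 676500 normalized CPM in controls 1 to 4 and 353800, 323600, 996500 and 439800 in knockouts 1 to 4. The sum was thus lower in knockouts 1, 2 and 4, where Ctnnb1 and Tcf7 exceeded every control, than in controls 2 to 4, and highest in knockout 3, where they did not. Its part in the values of Ctnnb1 and Tcf7 was not tested. T cells also express Tcf7 and Lef1. Of 18 T cell markers, 2 passed the filter on low counts, Cd3d had 0 counts in every library, and Cd3e and Cd8a had at most 1. Cd3g had 1 to 10 counts and Lck 2 to 33, with the highest Lck count in knockout 1 and the lowest in knockout 2. The summed T cell markers had 14.2, 11.4, 6.75 and 4.91 normalized CPM in controls 1 to 4 and 16.0, 11.9, 3.77 and 5.11 in knockouts 1 to 4. The sum was higher in all 4 libraries of set 1, the set with the larger differences of Tcf7 and Lef1, than in those of set 2, and its part in them was not tested. Ptprc alone had 12.6, 8.44, 3.87 and 2.93 in controls 1 to 4 and 11.0, 9.04, 1.30 and 1.95 in knockouts 1 to 4. The difference in the sum between the sets was thus largely that of Ptprc. Zap70, the other tested T cell marker, had means of 0.155 and 1.53 normalized CPM in controls and knockouts, without overlap between the groups (log2 fold change 3.35, adjusted p = 0.347 in edgeR, unadjusted p under 0.05). Like Notum, Zap70 entered the test through its knockout counts, so the size of its fold rests on few control counts. Of 8 enteroendocrine markers 8 were lower in the knockouts, 5 of them at an unadjusted p under 0.05, and for comparison 6595 of all 13439 tested genes were lower and 2.53% were lower at that limit. The enteroendocrine sum was 153 to 468 normalized CPM in the controls and 20.3 to 158 in the knockouts. Of 7 tested tuft cell markers 7 were lower, 1 at that limit, with sums of 208 to 497 and 91.0 to 324. Of 8 crypt stem cell markers 7 were lower, 3 at that limit (Olfm4, Ascl2 and Slc12a2), with sums of 761 to 1590 and 317 to 1009. Lower levels were thus common among markers of these other epithelial types. Of 6 tested enterocyte markers 5 were lower, 3 at that limit, with sums of 210.0 to 404 and 145 to 289. Of 8 goblet cell markers 4 were lower, 2 at that limit (Fcgbp at -2.24 and Zg16 at -5.05), and 4 higher, with sums of 9291 to 17800 and 7895 to 19040. Of 8 proliferation genes 8 were higher, 3 at that limit beside 4.35% of all tested genes, with sums of 85.9 to 181 and 114 to 262. None of these markers passed both cutoffs. Of 11 myeloid and B lineage and 10 stromal markers 1 each was tested, neither at that limit. The part of these other cell types in the levels of the 10 genes was not tested. In sorted bulk samples, fewer cells of a type and less RNA per cell cannot be told apart.

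Lastly, the genes most alike in pattern to the 3 members with the largest differences were named by Pearson's r of log2 normalized CPM over 8 libraries among the 13439 tested genes. For Ctnnb1 these were Tgfbr2 (0.951), Gabarapl1 (0.95) and Ptpro (0.95), for Lef1 they were Gpc4 (0.983), Tst (0.975) and Dtd2 (0.966), and for Tcf7 they were Rdh10 (0.978), Slc38a4 (0.959) and Susd6 (0.956). The 8 libraries share the genotype difference, and the highest of many coefficients is large by selection, so these values are a description only.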

How the data were processed

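RNA was measured in 8 libraries of 300 sorted Paneth cells each, amplified with Smart-seq2. The deposited table holds raw counts per gene. Per the study's methods, reads were aligned with GSNAP to mm10 and uniquely mapped reads were counted with featureCounts on Ensembl genes; the submitters' processing notes give featureCounts 1.6.3 and bcl2fastq 2.19.1. No strand setting is given in the sources used here. The β-catenin allele of both groups is given by the series' design text and by the study's results and figure legends. The sample labels and the sorting paragraph of the methods name the Mll1 alleles only.

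Groups were taken from the genotype labels (4 controls, 4 knockouts); replicate numbers follow accession order and pair no samples. The methods call the 2 genotypes littermates, and the labels do not say which mice shared a litter. The titles of control 4 and knockout 4 give 1 shared animal number with different genotypes, so a labelling error in 1 of them is possible and could not be checked. Rows without a gene (92 spike-in rows) were left out. Counts were tested with edgeR 4.0.16 (R 4.3.3): filterByExpr with a minimum count of 10, TMM scaling, glmQLFit with robust estimation and glmQLFTest, Benjamini-Hochberg adjustment over 13439 genes. A gene was called where the adjusted p did not exceed 0.05 and the change was 0.5 or more on the log2 scale, in either direction. The standard error is the log2 fold change divided by the square root of F. Single values were tested by exact two-sided permutation over 70 assignments of the libraries. Scripts were tested on simulated data. Alternatives were 2 other scalings, TMM without the 50 most abundant genes, 2 other filters, non-robust estimation, DESeq2 1.42.0, limma-voom 3.58.1 with sample quality weights, the library set as a block, another threshold and each library left out; the gene-wise tests within sets and those without knockout 3 and control 3, or without knockout 4 and control 4, were chosen after seeing the data. All 10 genes were named; of each other pathway list, called genes or else up to 2 with the smallest p; and for Ctnnb1, Lef1 and Tcf7 the 3 genes most alike. Ascl2, Cd3g, Fcgbp, Lck, Lgr5, Olfm4, Slc12a2, Ulk4, Zap70 and Zg16 were added after their values were seen. The members and lists were chosen with earlier results of these data known. Counting error at 20 to 50 counts, the depth of Tcf7l1, is 17.8% at the mean count, and it adds to the spread between mice. No 2 libraries agreed within sampling noise. Positions are those of mm10 (GRCm38), from the count table and GENCODE M21.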

Additional observations from a re-analysis of the deposited data

Results flagged for a closer look

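In 22 groups of 4 libraries (the 10 genes and Kmt2a in each genotype), 3 held a library far from the other 3 by Dixon's ratio, the gap to the nearest library divided by the range of the group. Chance flags about 1 in 20 groups, 1.1 of 22. Tcf7l2 in knockout 2 was the lowest of the knockouts, at 50.3 normalized CPM against 54.5 to 54.9, with a ratio of 0.921. The other 3 knockouts lay within 0.4 of each other, so a small gap was large beside their range. Apc in knockout 4 was the lowest of the knockouts, at 15.9 against 24.7 to 26.0, with a ratio of 0.878. Gsk3b in control 1 was the highest of the controls, at 43.0 against 31.8 to 32.9, with a ratio of 0.9. The causes were not tested.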

How the results depend on the processing

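The number of the 10 genes called was 0 with all 8 libraries in every alternative but 1: without a filter on low counts it was 1 (Tcf7), and 290 of all genes were called. It ranged from 0 to 1 with a library left out, being 1 (Tcf7) without knockout 3, and was 2 with library set 1 only. At an unadjusted p under 0.05 there were 3 of 10, 2 with upper-quartile factors (without Ctnnb1), 1 to 3 with a library left out (1 without control 3, without knockout 1 or without knockout 2) and 0 with set 2 only. Over all tested genes, 25 were called, 138 by DESeq2, 95 by limma-voom with quality weights, 13 with at least 10 counts in every library, 38 at an adjusted p of 0.1, 10 to 152 with a library left out (152 without knockout 3), 148 with set 1 only, 2 with set 2 only, 115 without knockout 3 and control 3 and 11 without knockout 4 and control 4. The causes were not tested. The Tcf7l2 share moved from -13.0 to -10.53 points as a share of raw counts and ranged from -18.03 to -9.35 with a library left out. Ctnnb1, Tcf7 and Lef1 were higher in the knockouts under all 21 alternatives, with log2 fold changes of 0.32 to 0.99, 0.59 to 1.47 and 0.51 to 1.89. Values near 0 changed sign. With upper-quartile factors Tcf7l1 was -0.02 and Bcl9 -0.003. With limma-voom Tcf7l1 was -0.003, Bcl9 -0.001, Apc 0.04 and Axin1 -0.02. With set 1 only Tcf7l1 was -0.02, Apc 0.02 and Axin1 -0.01. With set 2 only Gsk3b was -0.03, and without knockout 3 and control 3 Axin1 was -0.06. Without knockout 4 and control 4 Tcf7l1 was -0.03, Pygo2 -0.2 and Apc 0.12. With a library left out the ranges were -0.11 to 0.15 for Tcf7l1, -0.07 to 0.15 for Bcl9, -0.11 to 0.35 for Pygo2, -0.09 to 0.12 for Apc, -0.1 to 0.2 for Axin1 and -0.01 to 0.17 for Gsk3b. No paired analysis was possible because replicate numbers were given in accession order and the labels do not tie mice to litters.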
